A study of Mus musculus with 9 samples.

Results

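Macrophages of the colon are described here by 10 genes that mark them or their state of activation, out of 27719 genes and loci counted in the colon of 9 mice. The 10 are a list of symbols chosen with earlier results of these data known, and each symbol matched 1 line of the count table. Identity is covered by *Adgre1*, *Cd68* and *Csf1r*, the classically activated (M1) state by *Cd86*, and the alternatively activated (M2) or resident state by *Arg1*, *Mrc1*, *Cd163* and *Chil3*. *Itgax* and the cytokine gene *Il10* complete the set. Full-length cDNA of 3 C57BL/6J mice per group was sequenced on a Nanopore instrument, with 1 library per mouse. Control mice drank distilled water. Mice of the DSS group drank 2.5% dextran sodium sulfate, a polymer that injures the colon epithelium, for 7 days. The DSS + EA group drank the same and was then given electroacupuncture (EA), a weak current through needles at ST36 of both hind limbs, at 2 Hz and 0.2 mA for 30 minutes once a day over 5 days, starting after 5 days of modeling. The mice without EA were held for 30 minutes instead, so the needle and the current cannot be told apart. The labels name no altered gene in any group. DSS acts on the epithelium and not on a chosen immune cell, and whole colon was sequenced, so every value is a mixture of cell types.

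Monocytes that enter the gut mature into macrophages, and signalling through CSF1R keeps them alive. In the healthy colon these cells clear debris and bacteria and make interleukin-10, while in colitis newly arrived monocytes make inflammatory cytokines. M1 and M2 name the poles of activation by interferon-γ with microbial products and by interleukin-4 or interleukin-13, and cells in tissue often carry marks of both. F4/80, CD86 and ARG1, the proteins of *Adgre1*, *Cd86* and *Arg1*, were also stained in this study, and those images were not analysed here.

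Between 2627695 and 4235576 reads were counted per mouse, so that 3 counts corresponded to between 0.708 and 1.14 CPM, the count divided by the TMM-adjusted size of its library. Nothing in the labels says that the mice came from separate cages or cohorts, and the p-values measure the spread between these libraries. The libraries differed in their mixture of cells. Summed colon epithelium markers lay between 9041 and 25784 CPM in control, 1033 and 5447 in DSS, and 5960 and 12962 in DSS + EA. A large part of this sum was *Car1* alone, with 5243 to 21526 CPM in control, 638 to 2969 in DSS and 2739 to 9990 in DSS + EA. The spread of the sum within a group thus leans on that gene. Summed fibroblast markers lay between 400 and 449 CPM in control, 2772 and 3622 in DSS and 875 and 983 in DSS + EA, and those of endothelium between 25.3 and 29.5, 66.9 and 97.3, and 27.6 and 30.8. Smooth muscle markers lay between 1720 and 2083, 803 and 1531, and 1315 and 1387 CPM, B cell markers between 19.5 and 36.6, 13.4 and 29.1, and 31.7 and 69.8, and T cell markers between 8.64 and 15.7, 10.6 and 20.3, and 19.8 and 22.2. Pancreatic enzyme genes, made by the acinar cells of the pancreas, summed to 493, 27939 and 14140 CPM in DSS + EA mice 1 to 3. The control and DSS mice held 42.4 to 262 CPM, nearly all of it *Cela1*. DSS + EA mouse 1 had 241 counts of *Prss2* and 256 of *Cela2a*, against at most 2 of either in any control or DSS mouse. All 3 DSS + EA libraries thus held such RNA, which cannot be told apart from the group. Of these lists, *Amy2a5* and *Cpb1* were at 0 in all control mice and *Cpa1* in all DSS mice. The part of these mixtures in the values below was not tested, and in bulk colon fewer cells of a type and less RNA per cell cannot be told apart.

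With DSS, most of the macrophage genes rose. Of the 10, 8 passed the filter on low counts, and 7 of them rose in DSS against control at an adjusted p under 0.05 (edgeR quasi-likelihood test over 12566 genes). Among all genes tested, 40.9% were called in this comparison, 21.5% as higher. The median log2 fold change of the 8 was 3.61, against 0.02 over all genes. *Cd86* and *Chil3* had under 10 counts in every control mouse, *Arg1* in control mouse 1 and *Cd163* in control mice 1 and 3. These genes passed the filter through the other groups, and the count of calls and the median include them. With EA, 6 of the 8 fell against DSS, and the median was -2.0 against -0.02. Over all genes 35.5% were called there, 18.3% as lower. *Adgre1* and *Cd86* were the 2 that missed the threshold. The DSS mice are shared by the 2 comparisons, and a value that is high in them moves both.

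**Figure D1:**
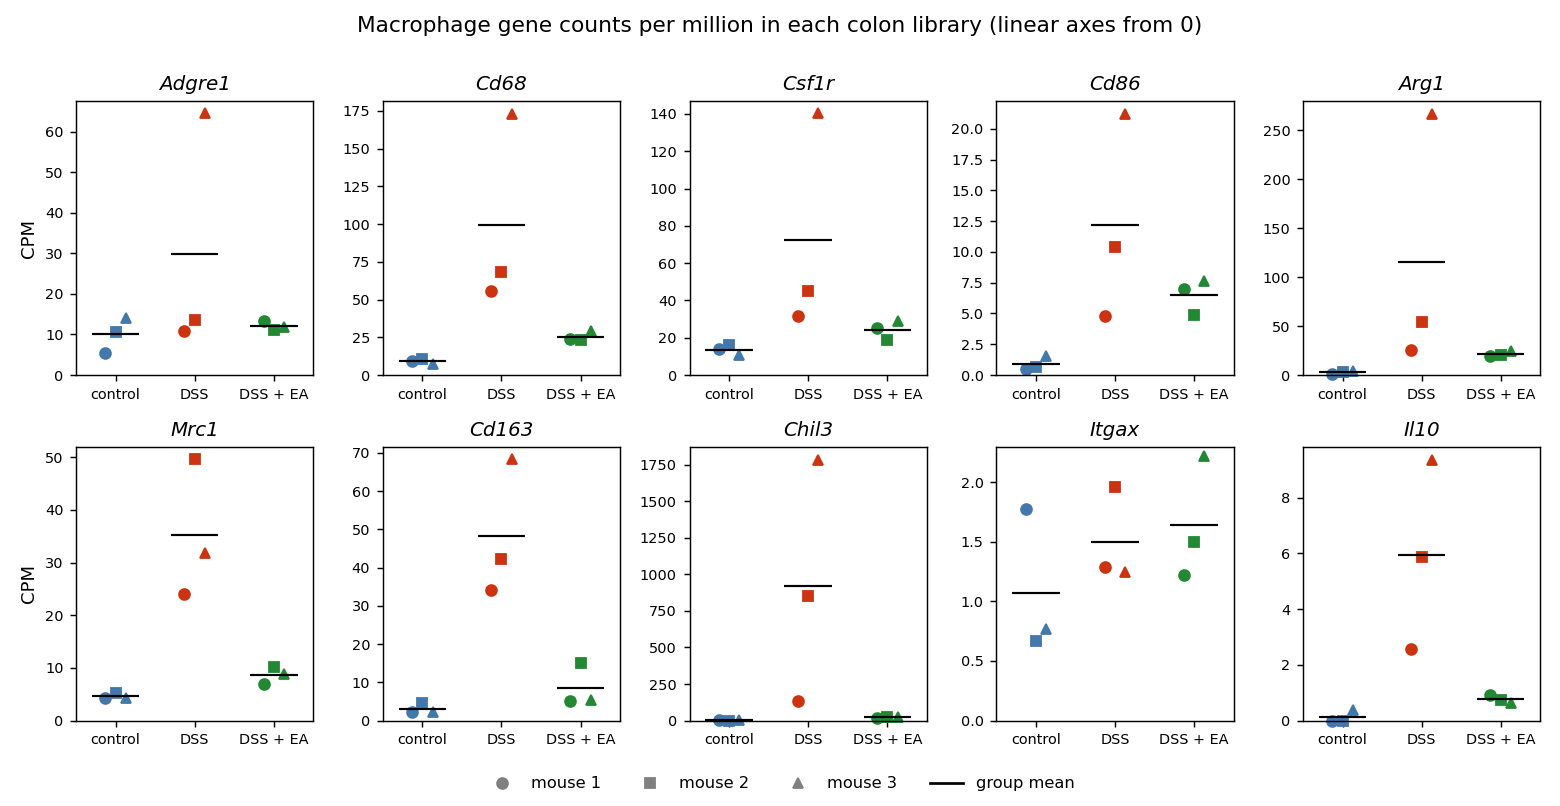
CPM of the 10 macrophage genes in each of the 9 mice, with 1 panel per gene on a linear axis from 0, a mark per mouse, the group in colour and a bar at the group mean. DSS mouse 3 is the highest of all mice for *Adgre1*, *Cd68*, *Csf1r*, *Cd86*, *Arg1*, *Cd163*, *Chil3* and *Il10*, and DSS mouse 2 for *Mrc1*.

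*Adgre1* encodes F4/80, a surface receptor of the adhesion family used to identify mouse macrophages, and lies at chr17:57358691-57483527 (GRCm38, plus strand). It measured 5.34, 10.6 and 14.2 CPM in control mice 1 to 3, 10.9, 13.7 and 64.6 in the DSS mice, and 13.4, 11.2 and 11.7 in the DSS + EA mice. DSS mice 1 and 2 lay within the control range and only DSS mouse 3 was above it, so the groups overlapped. The log2 fold change of DSS against control was 1.58 (SE 0.64, 95% interval 0.15 to 3.00, edgeR adjusted p = 0.0728), and without DSS mouse 3 it was 0.32 (edgeR adjusted p = 0.524). That of DSS + EA against DSS was -1.28 (SE 0.63, interval -2.68 to 0.11, edgeR adjusted p = 0.134), and -0.02 without the same mouse (edgeR adjusted p = 0.966). Leaving out DSS mouse 1 instead brought both past the threshold, at 1.95 and -1.64 (edgeR adjusted p = 0.0213 and 0.0419), as did leaving out DSS mouse 2 for the comparison with control (1.96, edgeR adjusted p = 0.0449).

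*Cd68*, a lysosomal glycoprotein of phagocytes at chr11:69664213-69666153 (minus strand), showed a different pattern. Control mice held 9.40, 10.3 and 7.28 CPM, DSS mice 56.0, 68.4 and 173, and DSS + EA mice 23.7, 23.5 and 28.9. The 3 groups did not overlap, with every DSS + EA mouse between the control and the DSS mice. *Cd68* rose with DSS by 3.45 on the log2 scale (SE 0.43, edgeR adjusted p = 0.000311) and fell by 1.96 (SE 0.39, edgeR adjusted p = 0.00501) with EA. DSS + EA against control gave 1.49 (SE 0.42, edgeR adjusted p = 0.0899).

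*Csf1r* encodes the receptor for CSF1 and interleukin-34 that macrophages need to survive. It measured 13.7, 16.0 and 10.7 CPM in control, 31.8, 45.0 and 140.4 in DSS, and 24.96, 18.7 and 29.2 in DSS + EA. Every DSS mouse was above every other mouse, although DSS mouse 1 stood close to DSS + EA mouse 3. The rise with DSS was 2.42 (SE 0.51, edgeR adjusted p = 0.0047) and the fall with EA was -1.57 (SE 0.49, edgeR adjusted p = 0.0317). The latter was -0.66 without DSS mouse 3 (edgeR adjusted p = 0.0908), and it also missed the threshold without control mouse 1 (edgeR adjusted p = 0.0507) or without any of the DSS + EA mice, and in a fit of only the 2 groups (edgeR adjusted p = 0.0693). An exon of *Hmgxb3* on the other strand overlaps *Csf1r*, and since the use of strand is not given, their reads cannot be told apart there. Of the 3 identity genes, *Cd68* and *Csf1r* were called and *Adgre1* was not. The count ratio of *Cd68* to *Adgre1* within a library was 1.76, 0.969 and 0.514 in control, 5.12, 5.00 and 2.68 in DSS and 1.77, 2.10 and 2.46 in DSS + EA. Its log2 value was higher in DSS than in control by 2.09 with no overlap (exact two-sided permutation p = 0.1, the smallest that 3 against 3 mice allow).

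*Cd86* encodes a ligand that gives T cells a second signal through CD28 and is restrained by CTLA-4, and it serves as the M1 marker. The gene lies at chr16:36603869-36666081 (minus strand). Control mice held 0.508, 0.665 and 1.53 CPM, from 2, 2 and 4 counts. The DSS mice reached 4.83, 10.4 and 21.2 CPM and the DSS + EA mice 7.00, 4.86 and 7.61. All DSS + EA mice lay between DSS mice 1 and 2, and every mouse of both groups was above every control mouse. *Cd86* rose with DSS by 3.77 (SE 0.64, edgeR adjusted p = 0.00154). Its change with EA was -0.89 (SE 0.49, interval -1.99 to 0.21, edgeR adjusted p = 0.180), an interval that holds both no change and a fall of the size of *Csf1r*. Only the omission of DSS mouse 1 brought it past the threshold (-1.23, edgeR adjusted p = 0.0317).

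*Arg1* encodes arginase, which splits arginine into ornithine and urea and so competes with nitric oxide synthase for it, and it serves as the M2 marker (chr10:24915221-24927484, minus strand). It measured 1.02, 3.32 and 3.83 CPM in control, 26.1, 53.7 and 266.5 in DSS, and 19.2, 20.2 and 24.7 in DSS + EA. No DSS mouse overlapped the DSS + EA mice, but DSS mouse 1 was 26.1 CPM against 24.7 in DSS + EA mouse 3, and DSS mouse 3 stood far above the rest. The rise with DSS was 5.45 (SE 0.90, edgeR adjusted p = 0.00134). The fall with EA was -2.43 (SE 0.74, interval -4.07 to -0.79, edgeR adjusted p = 0.0282), and it shrank to -0.90 without DSS mouse 3 (edgeR adjusted p = 0.110). The call was lost as well without any of the DSS + EA mice (edgeR adjusted p = 0.0738 to 0.0821), and in a fit of only the 2 groups (edgeR adjusted p = 0.0555).

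*Mrc1* and *Cd163* encode scavenging receptors, CD206 for sugars with mannose ends and CD163 for complexes of haemoglobin and haptoglobin. *Mrc1* (chr2:14229392-14332057, plus strand) measured 4.32, 5.32 and 4.22 CPM in control, 24.1, 49.8 and 31.8 in DSS, and 7.00, 10.1 and 8.88 in DSS + EA. Here DSS mouse 2 and not mouse 3 was the highest, and the 3 groups did not overlap. *Mrc1* rose with DSS by 2.93 (SE 0.32, edgeR adjusted p = 0.000171) and fell by 2.03 (SE 0.30, edgeR adjusted p = 0.00131) with EA, the smallest standard errors of the 8 in both comparisons. *Cd163* (chr6:124304656-124330527, plus strand) measured 2.29, 4.65 and 2.30 CPM in control, 34.1, 42.2 and 68.3 in DSS, and 5.17, 14.9 and 5.39 in DSS + EA. Its DSS + EA mouse 2 stood above the other 2 of its group and below every DSS mouse. The rise was 3.96 (SE 0.51, edgeR adjusted p = 0.000364) and the fall with EA -2.52 (SE 0.45, edgeR adjusted p = 0.00309). Both calls of both genes held in every fit with a mouse left out, with falls between -2.21 and -1.70 for *Mrc1* and between -3.15 and -2.18 for *Cd163*.

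*Chil3* encodes Ym1, a secreted chitinase-like lectin made by alternatively activated macrophages and also by cells of the neutrophil lineage (chr3:106147554-106167564, minus strand). Its counts were 3, 0 and 2 in control, 408, 3930 and 5721 in DSS, and 57, 66 and 70 in DSS + EA. As CPM these were 0.762, 0 and 0.766, then 131, 854 and 1785, and then 17.3, 24.7 and 22.2. The groups were far apart, and the DSS mice also differed widely among themselves. Summed over each group, the ratio of DSS to control was 1761 (95% interval 754 to 5423, exact and for counting error only), and that of DSS + EA to control was 40.5 (17.0 to 126.0). The log2 fold change of DSS against control was 10.69 (SE 1.14, edgeR adjusted p = 0.000149) and that of DSS + EA against DSS -5.43 (SE 0.83, edgeR adjusted p = 0.00144). The 12 neutrophil markers moved with it. Their sum was 22.6 to 159 CPM in control, 4556, 25447 and 27742 in DSS mice 1 to 3, and 1194 to 1590 in DSS + EA, and 9 of the 9 tested rose with DSS while 7 fell with EA. Over all genes 21.5% rose with DSS and 18.3% fell with EA. *Elane*, *Ltf*, *Mpo* and *Stfa2l1* were at 0 in all control mice and *Elane* in all DSS + EA mice. Among the tested markers, *Camp*, *Cxcr2*, *Ltf*, *Ngp*, *Stfa2l1*, *S100a8* and *S100a9* had at most 6 counts in any control mouse. They entered the test through the other groups, which favours a rise, and the tally includes them. The part of neutrophils in the *Chil3* values was not tested. The near copy *Chil4* had a total of 1 count over the 9 libraries, in DSS mouse 1.

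Promoters of 5 of the 10 genes, *Cd68*, *Mrc1*, *Cd163*, *Chil3* and *Itgax*, were found in the RefSeq promoter table (GRCm38.p6), each with 250 bases before the start of the gene and 50 from it on. They are shown because 4 of the 5 rose and fell together. Capitals mark matches on either strand to AGGAAG (the core of sites of PU.1, a factor that myeloid cells need), TTGCNNAA (C/EBP factors) and TTCNNNGAA (STAT factors). These motifs were chosen after the sequences were seen. Positions count from the start of the gene, with negative numbers before it.
Cd68, chr11:69666121-69666420, minus strand: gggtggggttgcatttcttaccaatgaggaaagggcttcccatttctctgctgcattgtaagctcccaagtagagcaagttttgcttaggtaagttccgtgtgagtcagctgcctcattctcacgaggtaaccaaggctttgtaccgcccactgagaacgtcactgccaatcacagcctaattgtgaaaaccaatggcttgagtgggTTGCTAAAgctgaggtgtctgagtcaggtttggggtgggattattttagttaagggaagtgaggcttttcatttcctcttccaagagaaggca
Mrc1, chr2:14229164-14229463, plus strand: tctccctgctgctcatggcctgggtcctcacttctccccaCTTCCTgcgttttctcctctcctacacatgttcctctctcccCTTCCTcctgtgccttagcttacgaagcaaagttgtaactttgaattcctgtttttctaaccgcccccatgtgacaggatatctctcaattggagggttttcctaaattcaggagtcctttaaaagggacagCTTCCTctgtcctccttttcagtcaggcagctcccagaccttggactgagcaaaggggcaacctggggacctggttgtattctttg
Cd163, chr6:124304401-124304700, plus strand: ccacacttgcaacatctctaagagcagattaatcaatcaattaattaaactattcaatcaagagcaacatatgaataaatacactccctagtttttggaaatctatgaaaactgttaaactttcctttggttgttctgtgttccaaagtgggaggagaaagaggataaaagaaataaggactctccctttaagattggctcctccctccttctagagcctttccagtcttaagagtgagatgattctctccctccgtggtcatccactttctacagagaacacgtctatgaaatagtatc
Chil3, chr3:106167515-106167814, minus strand: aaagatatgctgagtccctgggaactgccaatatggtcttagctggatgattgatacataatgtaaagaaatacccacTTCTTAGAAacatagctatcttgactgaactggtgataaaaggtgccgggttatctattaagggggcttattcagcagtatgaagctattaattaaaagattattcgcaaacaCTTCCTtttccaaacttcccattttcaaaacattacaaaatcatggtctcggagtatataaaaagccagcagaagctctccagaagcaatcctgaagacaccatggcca
Itgax, chr7:128129300-128129599, plus strand: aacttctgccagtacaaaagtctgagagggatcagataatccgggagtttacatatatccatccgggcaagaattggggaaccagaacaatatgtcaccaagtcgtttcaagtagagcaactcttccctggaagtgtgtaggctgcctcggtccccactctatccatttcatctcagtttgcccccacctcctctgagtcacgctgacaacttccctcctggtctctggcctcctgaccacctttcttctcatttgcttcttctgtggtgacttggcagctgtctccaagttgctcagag

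The *Mrc1* window held AGGAAG at 3 places, all as CTTCCT on the strand shown, and the *Chil3* window held it at 1, from -59 to -54. A TTCNNNGAA match lay from -172 to -164 of *Chil3* and a TTGCNNAA match from -43 to -36 of *Cd68*. *Cd163* and *Itgax* held none of the 3. Of 32851 promoter windows of the same length, 35.4% held AGGAAG, 10.8% TTGCNNAA and 8.3% TTCNNNGAA. No motif was shared by all 4 of the genes shown that rose. A match is a run of letters, not a bound site.

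*Itgax* and *Il10* were too low for the filter. *Itgax* encodes CD11c, an integrin chain of dendritic cells and of many gut macrophages (chr7:128129547-128150657, plus strand). It had 7, 2 and 2 counts in control, 4, 9 and 4 in DSS, and 4, 4 and 7 in DSS + EA, and the 3 groups overlapped. The ratio of summed counts was 1.35 for DSS against control (95% interval 0.598 to 3.19) and 1.06 for DSS + EA against DSS (0.491 to 2.25), both for counting error only. A change of the size seen for *Cd86* or *Arg1* with DSS was outside these intervals. Dendritic cell markers summed to 9.15 to 10.97 CPM in control, 7.18 to 11.7 in DSS and 6.72 to 16.5 in DSS + EA, with *Siglech* at 0 in all DSS mice.

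*Il10* encodes the cytokine with which gut macrophages and regulatory T cells hold back inflammation (chr1:131019845-131024974, plus strand). It had 0, 0 and 1 counts in control, 8, 27 and 30 in DSS, and 3, 2 and 2 in DSS + EA. Every DSS mouse was above every other mouse. The ratio of summed counts was 56.9 for DSS against control (95% interval 9.86 to 2281) and DSS was 7.75 times DSS + EA (3.56 to 20.05), for counting error only. On CPM the exact two-sided permutation p was 0.1 in both, the smallest possible. When all genes with counts were tested, edgeR gave 5.34 (adjusted p = 0.000423) and -2.81 (adjusted p = 0.00656).

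**Figure D2:**
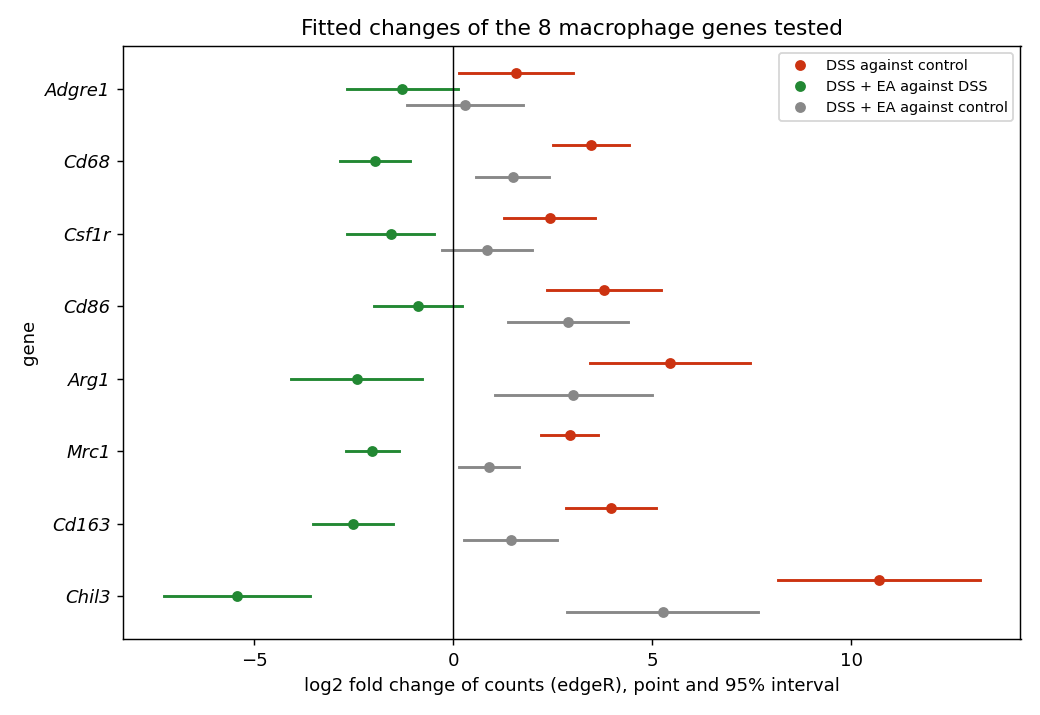
Log2 fold changes of the 8 macrophage genes tested, with a point for the edgeR estimate and a line for its 95% interval, for DSS against control, DSS + EA against DSS and DSS + EA against control. The intervals of *Adgre1* and *Cd86* reach past 0 for DSS + EA against DSS, and *Chil3* has the widest interval of the 8 in all 3 comparisons.

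Set against control, the DSS + EA mice kept 2 of the 8 genes at a higher level, *Cd86* and *Chil3*, where 3.64% of all genes were called and 3.00% as higher. *Cd86* was higher by 2.88 on the log2 scale (SE 0.67, edgeR adjusted p = 0.0467) and *Chil3* by 5.26 (SE 1.08, edgeR adjusted p = 0.0276). Both calls were lost when any control mouse or any DSS + EA mouse was left out, and that of *Cd86* without DSS mouse 2 as well. *Arg1* gave 3.02 (SE 0.88, edgeR adjusted p = 0.102) and passed the threshold without DSS mouse 1 or 3. The other 5 gave log2 fold changes between 0.29 for *Adgre1* and 1.49 for *Cd68* that missed the threshold. *Cd68* passed it without DSS mouse 1 or 3. In 7 of the 8 no DSS + EA mouse overlapped the control mice, as in 32.2% of all genes, and *Adgre1* was the exception. For DSS against control the groups of 7 of the 8 did not overlap (52.0% of all genes), and for DSS + EA against DSS those of 6 (47.4%). With the thresholds of the study's methods, a log2 fold change beyond 2.5 and an unadjusted P under 0.01, 6 of the 8 were differential in DSS against control (10.2% of all genes), 2 in DSS + EA against DSS (*Cd163* and *Chil3*, 6.41%) and 3 in DSS + EA against control (2.08%).

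The order of the genes by level depended on the scale, since a full-length read can stand for a whole molecule and dividing by length then favours short transcripts. As CPM, control ran from *Csf1r* at 13.5 ± 2.62 (mean ± SD, n = 3) over *Adgre1* at 10.1 ± 4.45 to *Cd68* at 8.997 ± 1.55, with the range of *Adgre1* overlapping the other 2. In DSS *Chil3* stood first on CPM with 923.5 ± 829, before *Arg1* with 115.4 ± 131.6 and *Cd68* with 99.2 ± 64.4, and all 3 ranges overlapped. In DSS + EA, *Cd68* with 25.4 ± 3.02, *Csf1r* with 24.3 ± 5.29, *Chil3* with 21.4 ± 3.72 and *Arg1* with 21.4 ± 2.97 CPM had overlapping ranges, and *Adgre1* with 12.1 ± 1.14 was below all 4. On the scale of CPM per kb of the longest coding transcript, *Cd68* came first in control with 7.31 ± 1.26 and *Adgre1* next with 3.10 ± 1.37. *Chil3* came first in DSS with 600.1 ± 539, and *Cd68* in DSS + EA with 20.6 ± 2.46 before *Arg1* with 14.5 ± 2.01. *Chil3* in DSS and *Cd68* in DSS + EA had the highest mean on both scales, and in control the first gene differed between them. On both scales *Arg1* stood below *Adgre1* in control and above it in DSS + EA, the latter without overlap.

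Since F4/80 was stained with CD86 and with ARG1, the counts were also set against *Adgre1* within each library, which frees them of library size. The ratio of *Cd86* to *Adgre1* was 0.0952, 0.0625 and 0.108 in control, 0.441, 0.762 and 0.329 in DSS and 0.523, 0.433 and 0.649 in DSS + EA. The DSS + EA mice lay within the range of the DSS mice, and both groups lay above all control mice. On the log2 scale with 0.5 added to each count, DSS differed from control by 2.24 and DSS + EA from DSS by 0.14 (exact two-sided permutation p = 0.1 and 0.8). This result depended on the reference gene. Per *Cd68*, *Cd86* was higher in DSS + EA than in DSS by 1.11 and per *Csf1r* by 0.62, both without overlap (exact permutation p = 0.1 for each). In DSS against control *Cd86* per *Cd68* gave 0.15 and per *Csf1r* 1.30, both with overlap (exact permutation p = 0.8 and 0.3). The ratio of *Arg1* to *Adgre1* was 0.190, 0.312 and 0.270 in control, 2.38, 3.92 and 4.13 in DSS, and 1.43, 1.8 and 2.11 in DSS + EA. It separated all 3 groups, with differences of 3.66 for DSS against control and -0.94 for DSS + EA against DSS (exact permutation p = 0.1 for each). The latter was 0.0266 with *Cd68* in place of *Adgre1* and -0.46 with *Csf1r*, both with overlap (exact permutation p = 0.9 and 0.3).

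Counts of *Arg1* per *Cd86* were 2.00, 5.00 and 2.50 in control, 5.40, 5.15 and 12.6 in DSS and 2.74, 4.15 and 3.25 in DSS + EA. The DSS + EA mice overlapped the control mice, and the DSS mice were above both. The log2 difference of DSS + EA from DSS was -1.09 and that of DSS from control 1.42 (exact permutation p = 0.1 for each). The ratios of *Chil3* and *Il10* to *Adgre1* also separated DSS from both other groups, with differences of 8.95 and 3.37 from control, and of -3.97 and -1.73 for DSS + EA against DSS. Those of *Mrc1* overlapped in every comparison (1.65, -1.14 and 0.50, exact permutation p = 0.3 to 0.4). *Cd163* to *Adgre1* gave 2.73, -1.79 and 0.94, and only the first was without overlap. The 30 differences of ratios to *Adgre1* and of *Arg1* to *Cd86* were adjusted together, and after Benjamini-Hochberg adjustment the smallest permutation p was 0.176. Further differences were tested with *Cd68* or *Csf1r* as the reference, and their p-values were not adjusted.

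**Figure D3:**
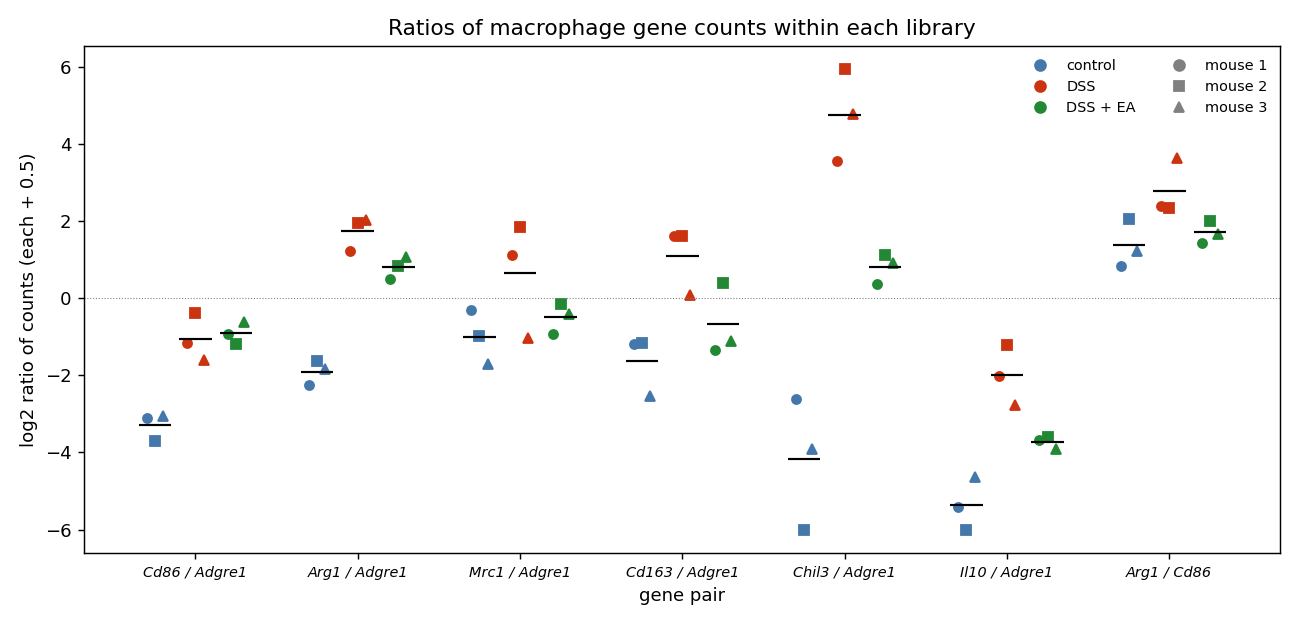
Log2 ratios of counts within each library (0.5 added to each count) for 6 macrophage genes over *Adgre1* and for *Arg1* over *Cd86*, with a mark per mouse and a bar at each group mean. The ratios of *Cd86* over *Adgre1* overlap between DSS and DSS + EA mice, while those of *Arg1* over *Adgre1* in the DSS + EA mice lie between those of control and DSS.

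Genes that followed the stained markers over the 9 libraries were read from log2 CPM, as a description over libraries of 3 groups that differ in many genes. The likest to *Adgre1* were *Klhdc4* (Pearson's r = 0.963), *Dnajc8* (0.952) and *Slc31a2* (0.941). *Bcl2a1b* (0.988), *Tpm3* (0.985) and *Ddx21* (0.983) were likest to *Cd86*, and *Cd300c2* (0.995), *Milr1* (0.990) and *Il33* (0.987) to *Arg1*. The 3 markers shared none of these neighbours, but lists of 3 genes are too short to tell whether the markers follow different genes.

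Beyond the 10, most of the other genes listed for monocytes and macrophages rose with DSS. Of 20 tested, 16 rose and 1 fell with DSS (median 2.38), and 9 fell and 1 rose with EA (median -0.95). Over all genes 21.5% rose and 19.5% fell with DSS, and 18.3% fell and 17.2% rose with EA. *Fcgr1*, *Itgam*, *Ccr2*, *Msr1* and *Marco* had at most 7 counts in any control mouse. These genes passed the filter through the other groups, and the tally and median include them. *Msr1*, a scavenger receptor for modified lipoproteins, rose by 5.49 (SE 0.62, edgeR adjusted p = 0.00019) and fell by 2.79 (SE 0.50, edgeR adjusted p = 0.00294) with EA. *Marco*, which binds bacteria, had 0, 1 and 0 counts in control, 61, 483 and 682 in DSS, and 11, 9 and 10 in DSS + EA. *Aif1*, which encodes the macrophage protein IBA1, measured 11.2, 11.97 and 11.5 CPM in control, 42.1, 48.7 and 75.2 in DSS and 54.2, 40.7 and 54.2 in DSS + EA. Its DSS and DSS + EA mice overlapped, and DSS + EA against control gave 2.10 (SE 0.26, edgeR adjusted p = 0.00365). *Ccr2*, the receptor that brings monocytes into tissue, rose by 2.67 (edgeR adjusted p = 0.0396), with DSS mouse 1 at 2 counts and within the control range, and gave -0.87 with EA (edgeR adjusted p = 0.394). *Cx3cr1*, the fractalkine receptor of resident cells and named after its values were seen, was the exception to both directions. It had 16, 11 and 14 counts in control, 2, 7 and 1 in DSS and 21, 6 and 17 in DSS + EA, a fall of -2.24 and a rise of 2.36 (edgeR adjusted p = 0.011 and 0.0103). Of the ligands of CSF1R, *Csf1* rose with DSS by 1.86 and *Il34* by 1.10 (edgeR adjusted p = 0.0222 and 0.00929), and with EA they gave -1.0 and -0.34 (edgeR adjusted p = 0.153 and 0.325). DSS mouse 1 held 3.86 CPM of *Csf1*, within the control range of 3.07 to 4.99. Of the 4 colony-stimulating ligands and receptors tested among 5, 3 rose with DSS (median 1.48) and 1 fell with EA, *Csf2rb*, by 2.30.

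Of 14 genes listed for resident macrophages 12 were tested, of which 9 rose and 1 fell with DSS (median 2.05), and 8 fell and 1 rose with EA (median -1.06). Among all genes 21.5% rose and 19.5% fell with DSS, and 18.3% fell and 17.2% rose with EA. *Trem2*, in this tally, had at most 4 counts in any control mouse and passed the filter through the other groups. The complement subunits *C1qa* and *C1qc* rose by 2.01 and 2.31. With EA *C1qc* fell by 0.95 (SE 0.17, edgeR adjusted p = 0.00325) and *C1qa* gave -0.27 (edgeR adjusted p = 0.384), and both stayed above control by 1.36 and 1.74 (edgeR adjusted p = 0.00445 and 0.00497). *Lyve1*, a hyaluronan receptor of vessel-side macrophages and of lymph vessels, rose by 2.08 and fell by 1.90 with EA.

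**Figure D4:**
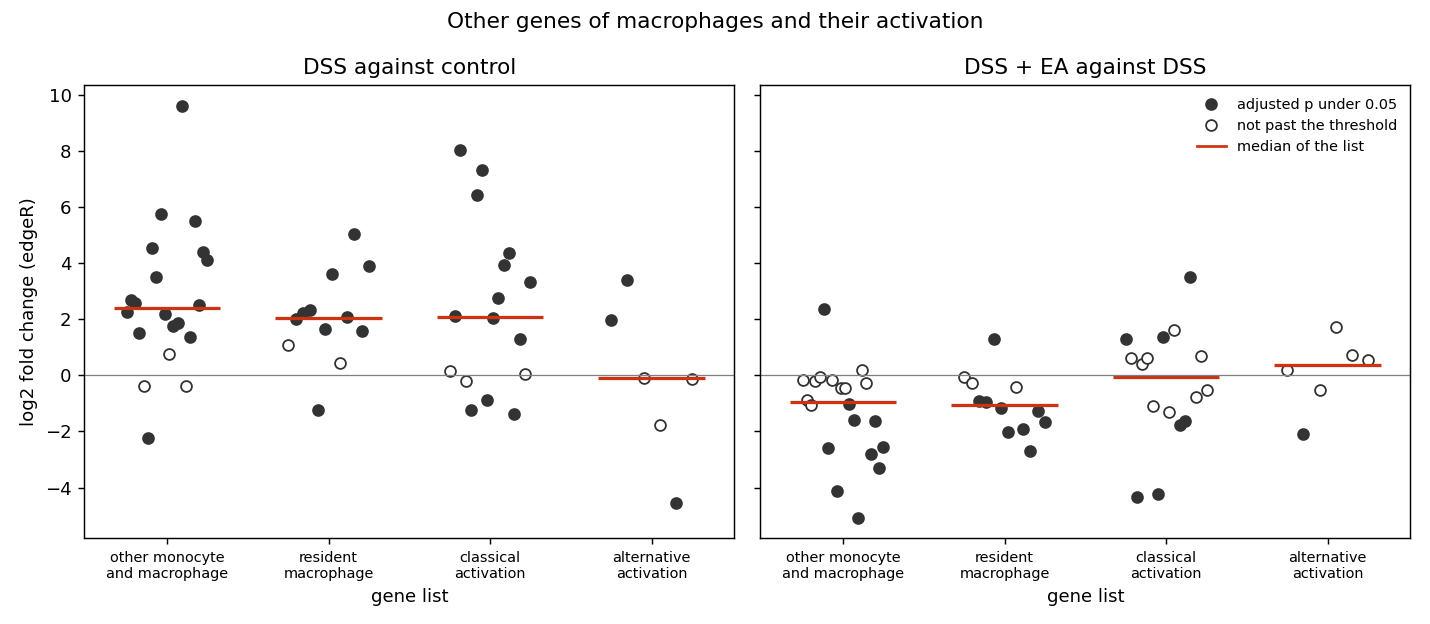
Log2 fold changes from edgeR of other genes of macrophages and their activation, in DSS against control (left) and DSS + EA against DSS (right), with a point per gene, filled where the adjusted p was under 0.05, and a red bar at the median of the list. The medians of the monocyte, macrophage and resident lists are above 2 with DSS and about -1 with EA, while that of the classical list is near 0 with EA.

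Genes of classical activation went in both directions with EA. Of 16 tested among 21, 10 rose and 3 fell with DSS (median 2.07), and with EA 3 rose and 4 fell (median -0.06), with 7 above control. Over all genes 21.5% rose and 19.5% fell with DSS, and 17.2% rose and 18.3% fell with EA. In DSS + EA against control 3.00% were higher. The shares of this list with EA were near those of all genes. *Nos2*, *Tnf*, *Il1b*, *Il6*, *Cd40*, *Fpr2* and *Ptgs2* had at most 9 counts in any control mouse. These genes passed the filter through the other groups, and the tallies and medians include them. *Il6* had 0, 1 and 1 counts in control, 93, 255 and 109 in DSS and 4, 7 and 8 in DSS + EA, and fell by 4.23 (SE 0.42, edgeR adjusted p = 0.000321) with EA. *Socs3*, a brake on cytokine signalling, rose by 4.38 and fell by 1.62. *Nos2*, whose enzyme uses arginine as ARG1 does, had 4, 3 and 0 counts in control, 6, 28 and 23 in DSS and 76, 17 and 57 in DSS + EA. It gave 2.76 with DSS, 1.63 with EA (SE 0.58, edgeR adjusted p = 0.0515) and 4.40 against control (edgeR adjusted p = 0.0137). *Ifng* was at 0 in control and had 0, 1 and 0 in DSS and 3, 1 and 0 in DSS + EA, too few to compare.

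Alternative activation was less well covered, with 6 of 16 genes tested, of which 2 rose and 1 fell with DSS (median -0.11) and 1 fell with EA (median 0.37). Among all genes 21.5% rose and 19.5% fell with DSS, and 18.3% fell with EA. *Clec10a*, in this tally, had 4 counts in each control mouse and passed the filter through the other groups. *Il4ra*, the shared receptor chain of interleukin-4 and interleukin-13, rose by 3.42 and fell by 2.09 with EA (edgeR adjusted p = 6.15e-05 and 0.000899). *Retnla*, which like *Arg1* and *Chil3* is a textbook M2 gene of the mouse, moved against them. It measured 25.2, 74.1 and 47.9 CPM in control, 0.322, 1.52 and 4.37 in DSS and 3.04, 6.35 and 0.952 in DSS + EA, so DSS and DSS + EA overlapped far below control. The fall was -4.56 with DSS and -3.85 in DSS + EA against control (edgeR adjusted p = 0.00112 and 0.0162). *Stat6*, the factor downstream of *Il4ra*, gave -0.12 and 0.55 (edgeR adjusted p = 0.690 and 0.0817).

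The lists for partners, relatives and pathways of single genes were small. In the IL-10 pathway, 2 of 6 rose and 1 fell with DSS (median 0.94), and 2 fell and 1 rose with EA (median -0.65), close to the 40.9% and 35.5% of all genes called in these comparisons. The receptor chain *Il10ra* rose by 2.97 and fell by 2.0, and *Stat3*, which carries its signal, rose by 1.94 and fell by 1.52. Of 5 arginine enzymes tested, *Ass1* rose by 0.94 and fell by 0.73. The others, *Asl* and *Odc1* among them, were not called (medians 0.55 and -0.21), a lower share than over all genes. *Arg2*, the mitochondrial arginase, gave 0.57 and 0.00 (edgeR adjusted p = 0.466 and 0.999). *Chil1*, a relative of *Chil3*, rose by 7.32 and fell by 4.71, with DSS mouse 3 at 555 CPM against 18.3 and 39.5 in the other 2, and *Ctbs*, the other tested of the family, was not called (medians of the pair 3.98 and -2.61). Of the genes listed for co-stimulation, *Ctla4*, for the inhibitory receptor of CD86, rose by 4.90 and fell by 2.69. *Icos* and *Cd274*, which are not for receptors of CD86, rose by 1.87 and 1.84 and were not called with EA (medians of the list 1.87 and -0.96). DSS mouse 1 held 2.25 CPM of *Cd274*, within the control range of 1.53 to 3.32. *Cd28* was too low to test. *Itgb2*, the chain that pairs with CD11c, rose by 4.37 and fell by 2.85 (edgeR adjusted p = 0.000961 and 0.00671). *Mrc2*, a relative of *Mrc1*, rose by 1.82 and gave -1.01 with EA (edgeR adjusted p = 0.138), and the medians of this pair were 3.09 and -1.93. *Chil1*, *Ctla4* and *Mrc2* had at most 7 counts in any control mouse and passed the filter through the other groups.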

How the data were processed

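Per the labels, colon RNA of 9 mice was sequenced as full-length cDNA on a Nanopore PromethION. The authors deposited raw counts of reads per gene. The build is mm10 in the submitters' processing notes, and the aligner, counter, annotation and use of strand are not given in the sources used here. Of 27733 lines, 14 held no counts and were skipped.

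Counts were tested with edgeR 4.0.16 in R 4.3.3 (TMM, filterByExpr by group, prior count 0.125, quasi-likelihood F test), in 1 fit over 9 libraries with group as the only term. Genes with a Benjamini-Hochberg adjusted p under 0.05 over 12566 genes were called. Standard errors are those implied by the F statistic. Ratios within libraries were tested by exact two-sided permutation (Python 3.11.15, scipy 1.17.1). Positions and transcript lengths come from GENCODE M21 (GRCm38), promoters from RefSeq. PCR copies were not told apart from molecules, so counting intervals (95%, exact) cover counting error only. The fit was also run on simulated counts with the same spread for every gene and few changed genes. That setting differs from these data, so it does not test the calls here.

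The 10 genes, the companion lists and the markers were chosen with earlier results of these data known. Named from each companion list, the cell type markers aside, were the 2 genes with the smallest P in DSS against control and in DSS + EA against DSS. *Ifng*, *Arg2*, *Chil4*, *Nos2*, *Il10ra*, *Csf1*, *Il34* and *Ccr2* were named whatever their values, and for the stained markers the 3 likest genes. A gene that this rule names is not reported here. Alternatives were DESeq2 1.42.0, RLE factors or library totals, no filter or a mean of 20 counts, a prior count of 2, the study's thresholds, only the 2 groups compared, the replicate number as a block, other reference genes and a pseudocount of 1 for ratios, and each mouse left out. Same-numbered mice are different animals. Groups of 3 were not tested for outlying samples.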

Additional observations from a re-analysis of the deposited data

How the results depend on the processing

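Over the alternatives, the 10 macrophage genes called in DSS against control numbered between 6 and 9, and 7 to 9 when a mouse was left out. In DSS + EA against DSS 6 were called, 2 by the study's thresholds, 4 in a fit of only the 2 groups, and 4 (without DSS mouse 3) to 9 (without DSS mouse 1) when a mouse was left out. In DSS + EA against control 2 were called, 4 by DESeq2, 1 with library totals, 1 with a mean of at least 20 counts, 4 in a fit of only the 2 groups, and 0 to 4 when a mouse was left out. Over all genes, 457 were called in that comparison, 738 by DESeq2, 1149 in a fit of only the 2 groups, and 110 to 772 when a mouse was left out. Among the fold changes of single genes, 365 kept their direction and side of the threshold, 15 came to pass it, 27 no longer passed it and 1 reversed, *Adgre1* in DSS + EA against control, at -0.0335 to 0.62 over the mice left out.

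With the replicate number as a block, 7, 5 and 3 of the genes were called, the call of *Csf1r* with EA being lost (-1.39, edgeR adjusted p = 0.0529) and *Arg1* gained against control (3.21, edgeR adjusted p = 0.0403). Deviations of same-numbered mice correlated at -0.160 to 0.105, so the samples share a number and no pairing was used.

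Of the ratios, 198 kept their direction and 12 reversed. *Cd86* to *Adgre1* in DSS + EA against DSS lay between -0.13 and 0.47 when a mouse was left out, and was 1.11 with *Cd68* and 0.62 with *Csf1r* as the reference. With *Cd68* as the reference, *Arg1* gave 0.0266 in DSS + EA against DSS, *Mrc1* -0.44 in DSS against control and -0.61 in DSS + EA against control, *Cd163* -0.17 in the latter and *Itgax* -0.87, and -0.22 with *Csf1r* as the reference. *Itgax* to *Adgre1* lay between -1.19 and 0.20 in DSS against control and between -0.19 and 1.01 in DSS + EA against control when a mouse was left out. The cause of these changes was not tested. Depth limits *Il10* and *Itgax*, of at most 30 counts in any library, and the control level of *Cd86* and *Chil3*.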
